A study of Arabidopsis thaliana with 15 samples.

Results

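TUB1, TUB7 and TUB9 are 3 of the 9 beta-tubulin genes of Arabidopsis thaliana. They were taken by name from the genes with a row annotated to exactly 1 gene, 3 of 16550 tested genes. Each of the 3 had 1 such row. They were selected on their log2 changes between level flight and the parabolas, which were already known from these data, so their own values are given here as a description, without a test. TUB5 and TUB6, the other 2 beta-tubulin genes with such a row, were not chosen and are tested below. They are what that choice left, so how far they differ from the 3 chosen genes may in part reflect it. TUB2, TUB3, TUB4 and TUB8 were not analysed here.

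The values come from 15 Affymetrix AraGene 1.0 ST arrays, each hybridised with total RNA from 1 pool of whole roots. All seedlings were 10 days old, grown under 24-h light, of the Wassilewskija (WS) cultivar and of the genotype pCaMV35S:14-3-3κ:GFP. In this line the broadly active CaMV 35S promoter drives 14-3-3κ, a regulatory protein that binds phosphorylated partners, joined to a green fluorescent reporter, and every group carries it; plants without the transgene were not analysed here. The seedlings rode on a C-9 aircraft inside Kennedy fixation tubes, which release the RNA preservative RNALater onto the plants when actuated. Roots were fixed in level flight before any parabola (n = 4) or after parabola 1 (n = 4), parabola 3 (n = 4) or parabola 10 (n = 3). A parabola joins a phase of reduced gravity to phases of raised gravity, and the design compares each number of parabolas with level flight for genes that respond to this flight pattern. Per the labels, the replicates of a condition came from 1 tube, so p-values measure the spread among pools of that tube, and condition, tube and time on board cannot be told apart. The roots' identity could be checked against few markers. EXPA7 and EXPA18, root hair expansins, lay at log2 values of 5.52 to 5.89 and 6.15 to 6.79 in level flight. The leaf marker RCA lay at 5.33 to 5.53, close to EXPA7. No gene of the root cap, endodermis, vascular or root meristem lists was among the tested genes.

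Microtubules are hollow tubes assembled from dimers of alpha- and beta-tubulin. In growing root cells they lie under the plasma membrane as cortical arrays, guide the complexes that make cellulose and so help to set the direction of growth, and in dividing cells they form the spindle and the phragmoplast. Gamma-tubulin complexes nucleate them, folding cofactors prepare the dimers, and associated proteins bundle, sever or move along them. TUB1 is known for transcripts that are most abundant in roots, and TUB9 for transcripts in pollen.

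All 3 genes had lower transcript levels after the parabolas than in level flight. TUB1 differed most, with levels about 1.83-fold lower after parabola 1, 2.36-fold lower after parabola 3 and 2.17-fold lower after parabola 10. TUB7 and TUB9 were 1.25- to 1.43-fold lower. The lower level was present after the first parabola in each of them, and within each gene the parabola groups differed less from each other than from level flight, except in TUB7 with the covariate described below. In whole roots, fewer cells that hold a transcript and less of it per cell cannot be told apart.

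TUB1 (AT1G75780) had log2 expression values of 6.70, 6.53, 6.34 and 6.70 in level flight. After parabola 1 its values were 5.59, 5.71, 5.82 and 5.67, after parabola 3 they were 5.14, 5.21, 5.38 and 5.58, and after parabola 10 they were 5.47, 5.51 and 5.37. All 11 parabola arrays lay below the lowest level array, with a gap of 0.52 on the log2 scale. The groups averaged 6.57 ± 0.17 in level flight, then 5.70 ± 0.09 after parabola 1, 5.33 ± 0.20 after parabola 3 and 5.45 ± 0.07 after parabola 10 (SD, n = 4, 4, 4 and 3).

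The log2 change of TUB1 against level flight was -0.87 ± 0.11 (SE) after parabola 1, -1.24 ± 0.11 after parabola 3 and -1.11 ± 0.12 after parabola 10. Of the tested genes 1.61% had a more negative change after parabola 1, 0.816% after parabola 3 and 1.58% after parabola 10. These shares were 4.28%, 6.23% and 10.9% for TUB7 and 6.62%, 5.40% and 5.54% for TUB9. As the genes were chosen with their changes known, nothing is read from the shares. Among the parabola groups the order was parabola 1, parabola 10 and parabola 3 from high to low. The parabola 3 arrays lay just below those of parabola 1, with 5.58 as the highest parabola 3 value and 5.59 as the lowest parabola 1 value, and the log2 difference of parabola 3 from parabola 1 was -0.37 ± 0.11 (SE). The parabola 10 arrays also lay below those of parabola 1 (-0.25 ± 0.12), and lay within the range of the parabola 3 arrays (0.12 ± 0.12 for parabola 10 minus parabola 3). That last difference was 0.06 without parabola 3 replicate 1 and 0.21 without parabola 3 replicate 4. With the array median of rows that carry no gene as a covariate, parabola 10 differed from parabola 1 by -0.56 and from parabola 3 by -0.01.

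TUB7 (AT2G29550) had log2 values of 5.20, 5.09, 4.84 and 5.03 in level flight. After parabola 1 they were 4.66, 4.69, 4.24 and 4.60, after parabola 3 they were 4.96, 4.37, 4.46 and 4.58, and after parabola 10 they were 4.61, 4.82 and 4.74. Of the 11 parabola arrays 10 lay below the lowest level array. The exception was parabola 3 replicate 1 at 4.96, above level replicate 3 at 4.84, so the groups of parabola 3 and level flight overlapped.

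The TUB7 groups averaged 5.04 ± 0.15 in level flight, then 4.55 ± 0.21 after parabola 1, 4.59 ± 0.26 after parabola 3 and 4.72 ± 0.10 after parabola 10 (SD, n = 4, 4, 4 and 3). Its log2 change against level flight was -0.49 ± 0.13 (SE) after parabola 1, -0.45 ± 0.13 after parabola 3 and -0.32 ± 0.14 after parabola 10. The last of these was -0.16 with the array median of rows that carry no gene as a covariate. The parabola groups overlapped each other in every pair, and their differences lay between 0.04 and 0.17 with standard errors of 0.13 to 0.14. The widest, parabola 10 minus parabola 1, was 0.47 with that covariate and 0.07 without parabola 1 replicate 3. The difference of parabola 10 from parabola 3 was 0.13, with 0.25 without parabola 3 replicate 1 and 0.06 without parabola 3 replicate 2. The sign of the smallest, parabola 3 minus parabola 1, turned without parabola 1 replicate 3 (-0.06) or without parabola 3 replicate 1 (-0.08).

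TUB9 (AT4G20890) had log2 values of 7.31, 7.05, 7.16 and 7.01 in level flight. After parabola 1 they were 6.60, 6.87, 6.74 and 6.81, after parabola 3 they were 6.61, 6.70, 6.49 and 6.81, and after parabola 10 they were 6.38, 6.71 and 6.77. All 11 parabola arrays lay below the lowest level array, though the gap of 0.14 was narrower than in TUB1. The groups averaged 7.13 ± 0.13 in level flight, then 6.76 ± 0.11 after parabola 1, 6.65 ± 0.14 after parabola 3 and 6.62 ± 0.21 after parabola 10 (SD, n = 4, 4, 4 and 3).

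The log2 change of TUB9 against level flight was -0.38 ± 0.11 (SE) after parabola 1, -0.48 ± 0.11 after parabola 3 and -0.51 ± 0.12 after parabola 10. The 3 parabola groups overlapped in every pair. The differences between neighbouring parabola groups were -0.10 ± 0.11 (parabola 3 minus parabola 1) and -0.03 ± 0.12 (parabola 10 minus parabola 3). The first was -0.07 without parabola 1 replicate 2, -0.05 without parabola 3 replicate 3, -0.16 without parabola 3 replicate 4 and -0.02 with arrays centred on reference genes. The second turned to 0.02 without parabola 3 replicate 4 and to 0.09 without parabola 10 replicate 1.

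**Figure D1:**
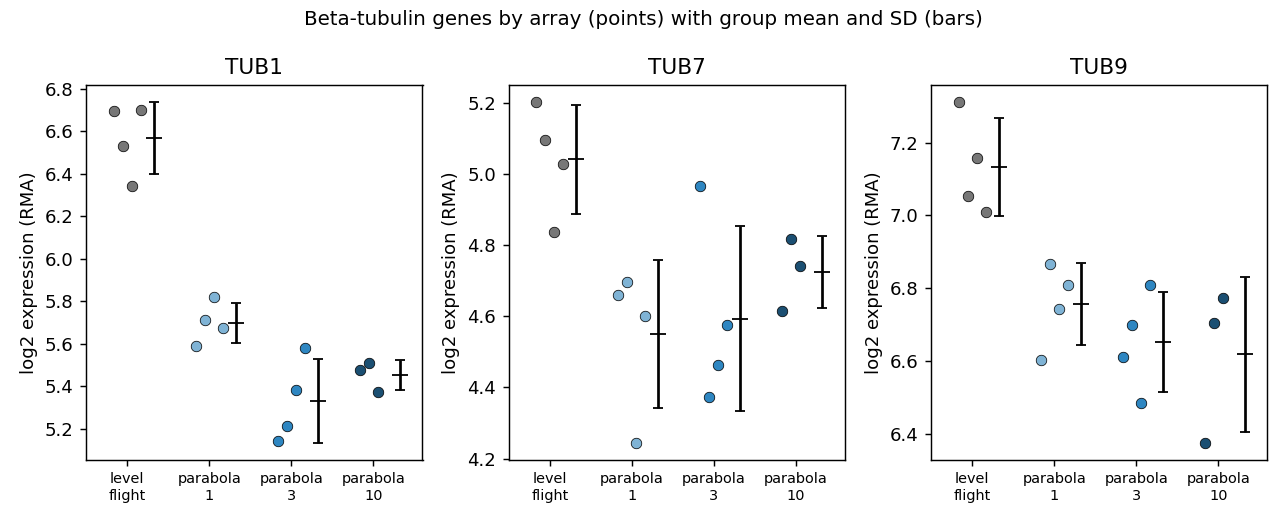
Log2 expression values (RMA) of TUB1, TUB7 and TUB9 on each of the 15 arrays, grouped as level flight, parabola 1, parabola 3 and parabola 10, with the group mean and SD beside the points. In TUB1 and TUB9 every parabola array lies below every level array, and in TUB7 the parabola 3 array at 4.96 lies inside the level range.

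The same 3 contrasts were fitted with limma across all 16550 genes, and a gene was called at an adjusted p under 0.05. After parabola 1, 3 of the 3 genes met this rule with a lower level, where 4.85% of all tested genes did. After parabola 3 it was 3 of 3, with 6.69% of all tested genes lower. After parabola 10 it was 2 of 3, TUB1 and TUB9, with 7.11% of all tested genes lower. The groups did not overlap and were lower in 3 of the 3 genes after parabola 1 (7.25% of all tested genes), 2 after parabola 3 (8.37%) and 3 after parabola 10 (10.6%). Between parabola groups 0 of the 3 met the adjusted rule, where 1.72% of all tested genes did for parabola 3 against parabola 1, 3.56% for parabola 10 against parabola 1 and 1.17% for parabola 10 against parabola 3. The groups did not overlap and were lower for 1 of the 3, TUB1, for parabola 3 against parabola 1 (3.82% of all tested genes) and for parabola 10 against parabola 1 (6.28%). Since the genes were chosen with these contrasts known, nothing is read from the counts. The median log2 change of the 3 genes was -0.49, -0.48 and -0.51 after parabolas 1, 3 and 10, beside 0.01, 0.03 and 0.04 over all tested genes. The 3 contrasts share the same 4 level arrays.

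The 3 genes shared less of their variation within groups. Over all 15 arrays the Pearson r was 0.84 for TUB1 with TUB9, 0.63 for TUB1 with TUB7 and 0.62 for TUB7 with TUB9. After the group means were removed, r was 0.16, -0.12 and 0.18 for the same pairs. These coefficients describe arrays that share a tube within each group. As all 3 genes were chosen with their changes against level flight known, a positive r over all arrays follows in part from that choice.

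TUB5 and TUB6 also encode beta-tubulin chains, the subunits that bind GTP and pair with alpha-tubulin, and were tested. TUB5 had log2 values of 4.77, 4.59, 4.59 and 4.85 in level flight. Its values were 4.46, 4.59, 4.50 and 4.44 after parabola 1, 4.38, 4.11, 4.50 and 4.25 after parabola 3, and 4.08, 4.50 and 4.50 after parabola 10. After parabola 3 the TUB5 level fell (-0.39 ± 0.11 SE, n = 4 and 4, limma adjusted p = 0.0339), and all 4 parabola 3 arrays lay below the level arrays, as did the 3 parabola 10 arrays. Its log2 change was -0.20 ± 0.11 after parabola 1 (adjusted p = 0.369) and -0.34 ± 0.12 after parabola 10 (adjusted p = 0.0754), which did not pass.

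The TUB5 call after parabola 3 was close to the threshold. It was lost without level replicate 1 (adjusted p = 0.0879) or 4 (0.105) and without parabola 3 replicate 2 (0.111) or 4 (0.0817). It was also lost with a repeated quantile normalization (0.0649), with arrays centred on reference genes (0.0603), with all rows tested (0.0531) and with the replicate number as a block (0.0536), and its adjusted p over all alternatives lay between 0.0168 and 0.111.

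TUB6 had log2 values between 7.98 and 8.11 in level flight, between 7.88 and 8.03 after parabola 1, between 7.90 and 8.15 after parabola 3 and between 7.74 and 8.15 after parabola 10. The groups overlapped in every contrast with level flight. The log2 change of TUB6 was -0.10 ± 0.10 (SE) after parabola 1, 0.01 ± 0.10 after parabola 3 and -0.09 ± 0.10 after parabola 10 (limma adjusted p = 0.665, 0.971 and 0.644). The difference in change between TUB6 and the 3 chosen genes was not tested.

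**Figure D2:**
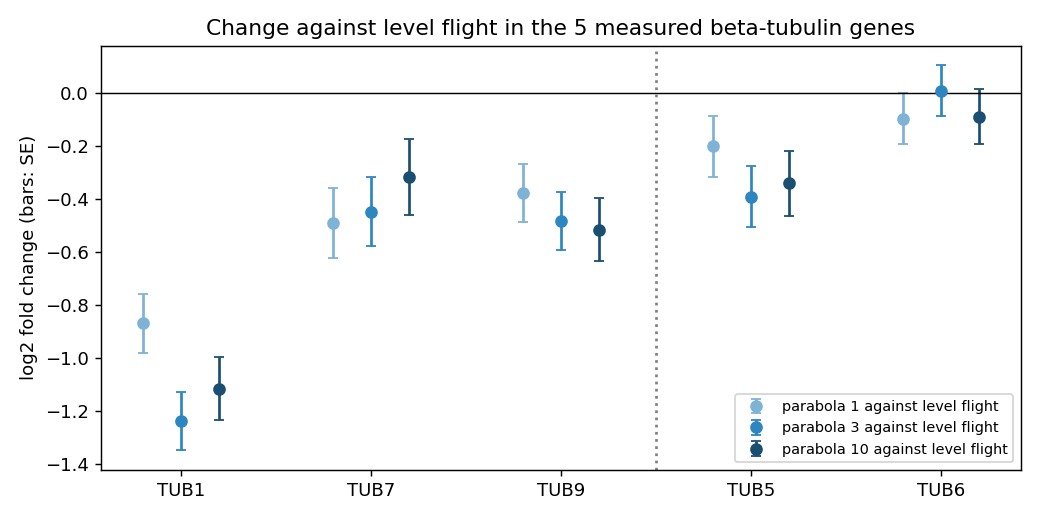
Log2 fold change against level flight of the 5 measured beta-tubulin genes after parabolas 1, 3 and 10, as points with SE bars, with the 3 chosen genes left of the dotted line. TUB1 lies at -0.87, -1.24 and -1.11, and TUB6 lies between -0.10 and 0.01. The chosen genes were picked with such changes known.

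The partners of beta-tubulin were represented by few genes. Of 6 alpha-tubulin genes only TUA6 had a row annotated to 1 gene, and 2 rows annotated to both TUA3 and TUA5 were left out. On all 15 arrays TUA6 lay below the array median of the tested genes, at 1.99 ± 0.15 in level flight, then 2.23 ± 0.14 after parabola 1, 2.12 ± 0.24 after parabola 3 and 1.87 ± 0.17 after parabola 10 (SD). Its log2 changes of 0.25, 0.13 and -0.12 did not pass (limma adjusted p = 0.292, 0.570 and 0.635). A change of alpha-tubulin transcripts could not be judged from this dim row.

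Of 11 genes listed for the gamma-tubulin ring complex 4 were measured, and 0 passed against level flight in limma. At an unadjusted p under 0.05 there was 1 of these genes after parabola 1, 1 after parabola 3 and 2 after parabola 10. This level was reached by 19.7%, 24.3% and 26.8% of all tested genes in the same contrasts, so nothing is read from these counts. TUBG1, a gamma-tubulin gene, had log2 changes of -0.24 ± 0.10 (SE), -0.19 ± 0.10 and -0.06 ± 0.11 after parabolas 1, 3 and 10 (adjusted p = 0.170, 0.248 and 0.757). The first of these passed with arrays centred on reference genes (adjusted p = 0.0487). AT1G20570 had changes of -0.43, -0.50 and -0.55 with an SE of 0.22 to 0.24, and the last passed without parabola 10 replicate 2 (0.0494). AT3G43610 had 0.04, -0.09 and -0.25, and AT5G17410 had 0.00, -0.10 and 0.10. Of 6 tubulin folding cofactors 2 were measured. POR, cofactor C, had changes of 0.23, 0.46 and 0.31 and PFI, cofactor E, had -0.08, -0.16 and -0.27, and 0 passed in limma. POR passed after parabola 3 without parabola 1 replicate 3 (0.0370), and PFI after parabola 10 without parabola 10 replicate 3 (0.0485). At an unadjusted p under 0.05 there were 0, 1 and 1 of these cofactors after parabolas 1, 3 and 10. The shares of all tested genes are those given above for the same contrasts.

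Of 35 listed microtubule-associated proteins 8 were measured. After parabola 1, 3 of them fell and 0 rose, and the same counts were found after parabola 3. After parabola 10, 2 fell and 0 rose. Of all tested genes 4.85%, 6.69% and 7.11% were called lower in the same contrasts. The list was chosen with earlier results of these data known, so nothing is read from its counts. The median log2 change of the list was -0.18, -0.19 and -0.20 after parabolas 1, 3 and 10, beside 0.01, 0.03 and 0.04 over all tested genes. ATMAP65-6, of a family that cross-links neighbouring microtubules, had values from 5.95 to 6.08 after parabola 1 and from 6.41 to 6.76 in level flight, and fell (-0.59 ± 0.11 SE, limma adjusted p = 0.00192). It also fell after parabola 3 (-0.59 ± 0.11, adjusted p = 0.00170), with values from 5.82 to 6.29, while its change of -0.24 ± 0.12 after parabola 10 did not pass (adjusted p = 0.207).

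AT3G23090, or WDL3, a WAVE-DAMPENED2-like microtubule-binding protein, fell after all 3 steps. Its log2 changes were -0.68 ± 0.14 (SE, limma adjusted p = 0.00371), -0.77 ± 0.14 (adjusted p = 0.00120) and -0.48 ± 0.15 (adjusted p = 0.0374) after parabolas 1, 3 and 10. The last of these was lost without level replicate 1, 2 or 4 or any 1 of the parabola 10 replicates (adjusted p from 0.0539 to 0.120), and also under the replicate block (0.0584), with all rows (0.0634), after a repeated quantile normalization (0.0529) and with the 2 groups alone (0.0792). The parabola 1 call was lost with the covariate of rows that carry no gene (0.0549).

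The locus AT1G11160, also of this list, fell after parabolas 1, 3 and 10 (-0.63 ± 0.16, -0.53 ± 0.16 and -0.71 ± 0.17 SE, limma adjusted p = 0.0163, 0.0383 and 0.00867). Level replicate 3, at 3.72, lay apart from the other level arrays of this locus, at 4.22 to 4.32. The values of this locus were low, at 3.27 to 3.78 after parabola 1, 3.42 to 3.92 after parabola 3 and 3.18 to 3.62 after parabola 10. The array medians of the tested genes lay between 3.65 and 3.70. The parabola 1 call was lost without level replicate 1 (0.0604) or 2 (0.0537), without parabola 1 replicate 2 (0.0553) or 4 (0.0619), or with the covariate (0.0768). The parabola 3 call was lost without level replicate 1 (0.111), 2 (0.107) or 4 (0.0908), without parabola 3 replicate 2 (0.0910), 3 (0.109) or 4 (0.0831), or with all rows (0.0712). The parabola 10 call was lost without parabola 10 replicate 3 (0.0503). AT5G23430 had changes of -0.17, -0.14 and -0.37, which did not pass, though the last passed without parabola 10 replicate 3 (0.00800) and with arrays centred on reference genes (0.0474).

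Kinesins, the motor proteins that walk on microtubules or take them apart, were represented by 6 of 20 listed genes. In limma 0 of them passed after any step, and 2, 1 and 0 had an unadjusted p under 0.05 after parabolas 1, 3 and 10. Such a p was found for 19.7%, 24.3% and 26.8% of all tested genes. KINESIN-12B, a kinesin of the phragmoplast, had log2 changes of -0.27, -0.17 and -0.16, and KINESIN-13A had -0.02, -0.07 and 0.11. AT2G22610 had changes of -0.26, -0.32 and -0.26, and AT2G28620 had -0.30, -0.19 and -0.11.

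Over the 6 tubulin and microtubule lists together, without the 3 chosen genes, 23 of 84 genes were measured. After parabola 1, 3 of these 23 fell and 0 rose, after parabola 3, 4 fell and 0 rose, and after parabola 10, 2 fell and 0 rose. These are 13.0%, 17.4% and 8.70% of the 23 genes. Of all tested genes 4.85%, 6.69% and 7.11% were called lower and 3.47%, 4.48% and 7.53% higher. In either direction it was 8.33%, 11.2% and 14.6%. As these lists were chosen with earlier results of these data known, nothing is read from how the shares differ. At an unadjusted p under 0.05 there were 6, 8 and 7 of the 23, where 19.7%, 24.3% and 26.8% of all tested genes reached it. Between parabola groups 0 of the 23 passed in limma, and 0, 3 and 1 had an unadjusted p under 0.05 for parabola 3 against 1, 10 against 1 and 10 against 3, where 14.5%, 17.5% and 12.8% of all tested genes did. The median log2 change of the 23 genes was -0.13, -0.15 and -0.14, beside 0.01, 0.03 and 0.04 over all tested genes. Without level replicate 1 or 4 or parabola 3 replicate 2 or 4, only 2 genes were called after parabola 3. Without level replicate 1, 2 or 4 or parabola 10 replicate 1, only 1 was called after parabola 10.

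**Figure D3:**
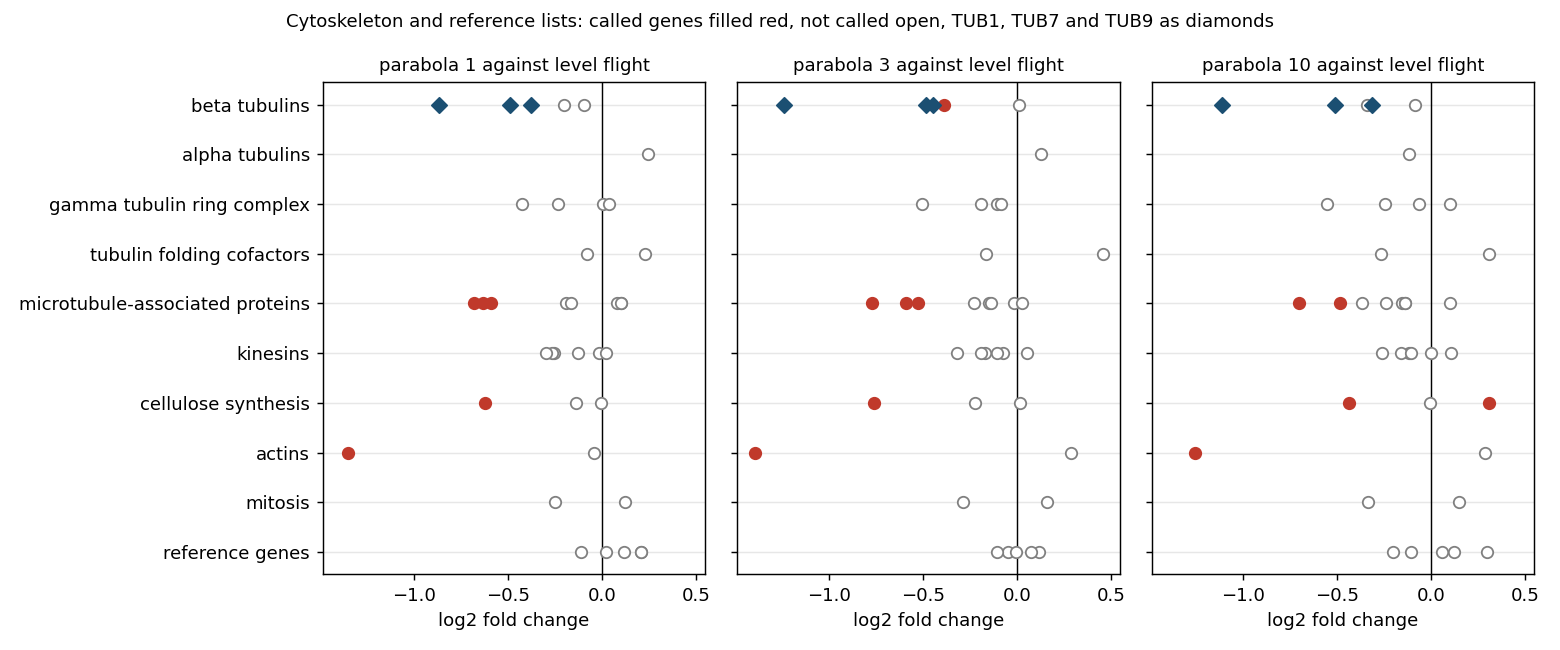
Log2 fold change against level flight of every measured gene of the cytoskeleton, cellulose, mitosis and reference lists, with 1 panel for each parabola group. Filled red points passed the limma test at an adjusted p under 0.05, open points did not, and diamonds mark TUB1, TUB7 and TUB9, for which no test is given. Within the 6 tubulin and microtubule lists all filled points lie left of 0.

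Cellulose synthesis, which cortical microtubules guide, was covered by 3 of 14 listed genes. COB, or COBRA, an anchored protein needed for oriented cellulose deposition, had log2 values from 10.5 to 10.6 in the 3 earlier groups. After parabola 10 its values were 10.8 on all 3 arrays, and it rose (0.30 ± 0.08 SE, n = 3 and 4, limma adjusted p = 0.0176). This call did not hold without level replicate 4 (0.0513), without parabola 10 replicate 1 (0.0510), with arrays centred on reference genes (0.0881), with the 2 groups alone (0.0576) and with the covariate (0.0739). The locus AT5G42860 fell after parabolas 1, 3 and 10 (-0.62 ± 0.12, -0.76 ± 0.12 and -0.44 ± 0.13 SE, adjusted p = 0.00231, 0.000334 and 0.0286). Its call after parabola 10 was lost without level replicate 1 (0.0618), 2 (0.0547) or 4 (0.0846), without parabola 10 replicate 1 (0.155) and with the covariate (0.133). AT1G45688 had changes of -0.14, -0.22 and -0.01, which did not pass.

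Actin filaments, the other main part of the plant cytoskeleton, were covered by 2 of 8 genes. As with the other lists, these genes were listed with earlier results of these data known. ACT11, an actin gene best known from reproductive organs, had log2 values of 6.87, 6.99, 6.86 and 7.17 in level flight. They were 5.70, 5.85, 5.25 and 5.68 after parabola 1, 5.59, 5.95, 5.23 and 5.54 after parabola 3, and 5.63, 6.21 and 5.32 after parabola 10. All 11 parabola arrays lay below the level arrays. ACT11 fell by 1.36 ± 0.18 (SE) on the log2 scale after parabola 1, by 1.40 ± 0.18 after parabola 3 and by 1.26 ± 0.19 after parabola 10 (limma adjusted p = 6.33e-05, 4.20e-05 and 0.000188). The adjusted p stayed between 3.40e-06 and 0.00188 over all alternatives of the 3 contrasts. ACT12 had changes of -0.04, 0.29 and 0.28, which did not pass (adjusted p = 0.897, 0.119 and 0.142), though the last passed without parabola 10 replicate 1 (0.0428).

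**Figure D4:**
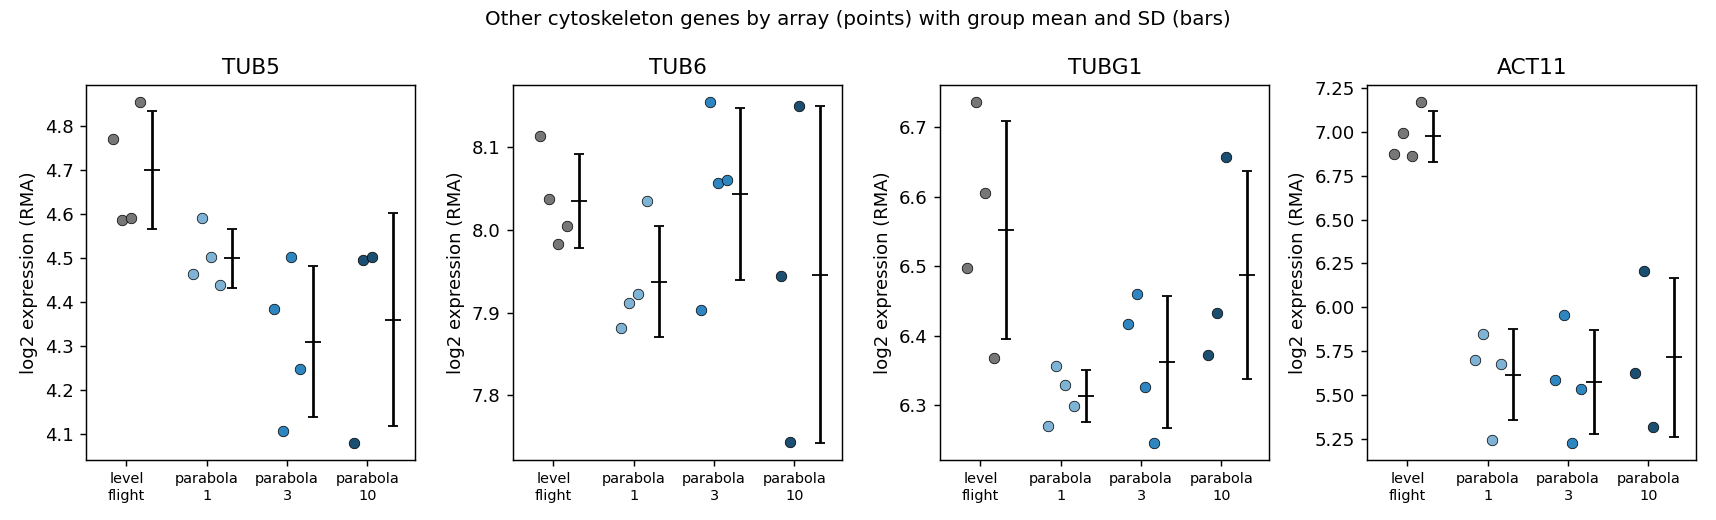
Log2 expression values (RMA) of TUB5, TUB6, TUBG1 and ACT11 on each array in level flight and after parabolas 1, 3 and 10, with the group mean and SD beside the points. All ACT11 parabola arrays lie below its level arrays, while the TUB6 groups overlap.

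Over all 17 lists without the 3 chosen genes, 39 genes were measured. After parabola 1, 5 of them fell and 0 rose, after parabola 3, 6 fell and 1 rose, and after parabola 10, 4 fell and 2 rose. These are 12.8%, 17.9% and 15.4% of the 39 genes, beside 8.33%, 11.2% and 14.6% of all tested genes. The share after parabola 10 was thus close to that of all genes. The lists were chosen with earlier results of these data known, so no excess is read from the shares after parabolas 1 and 3. Of 12 mitosis genes AUR1 and AUR2, Aurora kinases of the mitotic spindle, were measured. AUR1 had log2 changes of 0.12, 0.16 and 0.15 and AUR2 had -0.25, -0.28 and -0.34 after parabolas 1, 3 and 10, and 0 passed in limma. At an unadjusted p under 0.05 there were 0 of these 2 genes in each contrast, where 19.7%, 24.3% and 26.8% of all tested genes reached it. Of 5 measured reference genes 0 passed against level flight, and 0, 0 and 1 had an unadjusted p under 0.05, beside the same shares. AT2G28390 had changes of 0.21, 0.12 and 0.29, PEX4 had 0.02, -0.05 and -0.20, AT5G15710 had 0.20, -0.01 and 0.05, and GAPC2 had -0.11 after each step.

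The markers of cell types gave few values beside these changes, and their part in the tubulin levels was not tested. Of 6 root hair markers 2 were measured. EXPA7 rose after parabola 3 (0.55 ± 0.14 SE, adjusted p = 0.0145) and parabola 10 (0.81 ± 0.15, adjusted p = 0.00118), opposite to the 3 tubulin genes, and its change of 0.31 ± 0.14 after parabola 1 did not pass (0.223) unless the covariate of rows that carry no gene was fitted (0.0478). Without parabola 3 replicate 2 the call after parabola 3 was lost (0.0567). EXPA18 had changes of -0.02, -0.22 and 0.02. Of 5 leaf markers RCA, rubisco activase, had changes of 0.10, 0.17 and 0.33, which did not pass (adjusted p = 0.807, 0.556 and 0.208). Its level after parabola 10 was 6.30 on replicate 1 and 5.54 and 5.47 on the others, and the change there was 0.07 without replicate 1. After parabola 3 it was 0.06 without replicate 4. The pollen marker VGD1 lay below the array median of tested genes on all 15 arrays, at 1.98 to 2.08 in level flight, 1.83 to 2.28 after parabola 1, 1.84 to 2.20 after parabola 3 and 1.72 to 2.06 after parabola 10. It had log2 changes of 0.00, -0.08 and -0.12. ACT12, which is also 1 of the 3 listed pollen markers, lay below that median on all 15 arrays too, with the changes of -0.04, 0.29 and 0.28 given above.

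Genes whose pattern over the 15 arrays was most like each tubulin gene were found by the Pearson r of their log2 values. For TUB1 these were AT5G15180 (r = 0.97), AT5G57785 (0.97), the U-box ubiquitin ligase gene PUB19 (0.95), AT3G25930 (0.95) and AT1G74450 (0.95). These 5 were lower in all parabola groups, with log2 changes from -0.77 to -1.80 against level flight. For TUB7 they were AT5G14030 (0.91), AT2G38160 (0.91), AT3G20640 (0.88), AT2G05810 (0.87) and AT3G52960 (0.86), with log2 changes from -0.11 to -0.60. For TUB9 they were AT5G13980 (0.92), AT1G27200 (0.90), AT1G26795 (0.90), AT3G15180 (0.88) and AT5G51980 (0.88), with log2 changes from -0.16 to -0.57. None was shared between the 3 genes. Some of these rows were dim. PUB19 (1.67 to 3.29), AT3G52960 (2.95 to 3.40) and AT1G26795 (1.85 to 2.37) lay below 3.65, the lowest array median of the tested genes, on every array. AT1G74450 was also low, at 2.51 to 3.74. After the group means were removed, r lay between 0.38 and 0.77 for the TUB1 set, 0.76 and 0.89 for the TUB7 set, and 0.62 and 0.88 for the TUB9 set. Each set holds the 5 highest r among all tested genes, with a gene chosen for its lower level after the parabolas. The lower levels of the sets and their r, also within groups, follow in part from this choice. Of these 15 genes, 7 to 14 were again among the 5 most like their tubulin gene under 18 alternatives.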

How the data were processed

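Total RNA of 15 root pools was measured, 1 array each. Each deposited value is the log2 expression of a probe set. RMA, oligo, TAIR10, limma and R 4.0.0 appear in the submitters' processing notes, with no role for each. RMA removes background, makes the arrays' distributions alike and combines probes. The authors' filters are not stated. The value table held 38408 rows and 0 columns of other samples. Of these rows 16722 carried 1 gene, 759 several and 20927 none in the annotation supplied. For 146 genes with several rows the row with the highest mean was kept, which left 16550 genes. Names came from that annotation and a TAIR10.1 table, to which 16574 rows matched. As the builds differ in name, no coordinates are given. Probe sets of related tubulin genes may share signal, which was not tested. Array medians over tested genes lay between 3.65 and 3.70, and the number of arrays limits the precision.

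Group means of all 15 arrays were fitted with limma 3.58.1 in R 4.3.3 (lmFit, eBayes). Tests were two-sided, with Benjamini-Hochberg adjustment over all genes within each of 6 contrasts, and the threshold was an adjusted p under 0.05. The fit was tested on simulated data for parabola 1 against level flight. It recovered 51% of 100 genes changed by 0.5 on the log2 scale and 96% of 100 genes changed by 1. A gene that did not pass may therefore still have changed by about 0.5. The members and the 17 gene lists were chosen with earlier results of these data known. Named were all measured tubulin, gamma-tubulin complex and cofactor genes, up to 4 of each other list by the smallest F-test p, and the 5 genes most like each member. The alternatives were other scalings, a filter on dim genes, all rows, row means, 2 groups alone, other variance models, array weights, a covariate, the replicate block, a threshold of 0.01 and omission of each array.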

Additional observations from a re-analysis of the deposited data

Results flagged for a closer look

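In 7 of 150 groups of 4 arrays screened for the 50 named genes, 1 array lay far from the other 3 by Dixon's test, which chance gives in about 1 in 20 groups. None was in TUB1, TUB7, TUB9, TUB5 or TUB6. On parabola 3 replicate 3, AT5G17410 lay at 4.27 (others 4.68 to 4.70), KINESIN-12B at 4.38 (others 4.62 to 4.63), KINESIN-13A at 7.04 (others 7.31 to 7.33) and AT3G25930 at 3.83 (others 3.57 to 3.61). On level replicate 3, AT1G11160 lay at 3.72 (others 4.22 to 4.32) and AT5G14030 at 9.34 (others 9.59 to 9.61). On parabola 3 replicate 2, VGD1 lay at 2.20 (others 1.84 to 1.90). COB was higher after parabola 10 than after parabola 1 by 0.31 on the log2 scale (limma adjusted p = 0.0444, all 3 parabola 10 arrays above all 4 parabola 1 arrays).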

How the results depend on the processing

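TUB1, TUB7 and TUB9 stayed lower than in level flight in all 3 contrasts under each of 26 alternatives. Without 1 array the log2 change of TUB1 lay between -0.94 and -0.82 after parabola 1, -1.32 and -1.18 after parabola 3, and -1.19 and -1.07 after parabola 10. With the median of rows without a gene as a covariate, TUB1 moved by more than its SD, to -0.72 after parabola 1 and -1.28 after parabola 10, and to -0.55 for parabola 3 and -0.56 for parabola 10 against parabola 1, and TUB7 to 0.47 for parabola 10 against parabola 1. Array medians of these rows averaged 3.97 ± 0.04 after parabola 1, 3.84 ± 0.09 after parabola 3 and 3.75 ± 0.09 after parabola 10 (SD), against 3.86 ± 0.04 in level flight. The cause was not tested.

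The count of called microtubule genes after parabola 10 was 1 in place of 2 with a repeated quantile normalization, with all rows, with the 2 groups alone and at a threshold of 0.01. It was 2 in place of 4 after parabola 3 with all rows and at 0.01, and 1 in place of 3 after parabola 1 with the covariate. Over all lists, 4 in place of 7 genes passed 0.01 after parabola 3 and 3 in place of 6 after parabola 10. Without 1 array the microtubule counts were 2 to 3, 2 to 5 and 1 to 2 after parabolas 1, 3 and 10, and those of all lists 4 to 5, 4 to 8 and 3 to 6. Of all genes, 1378, 1850 and 2423 were called, and 1023 to 1417, 1369 to 1922 and 1723 to 2472 without 1 array. With all rows the counts were 2548, 3173 and 4460, as more rows were tested, and at 0.01 they were 763, 923 and 1356. With the covariate they were 916 after parabola 1 and 1336 after parabola 10. Lower genes made up 58.3% of those called after parabola 1 and 77.8% with arrays centred on 5 reference genes.

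The replicate numbers were not treated as pairs, since deviations of same-numbered arrays correlated between -0.08 and 0.11 and only 1 of 21 pairs was over 0.1. An array correlated best with its own number in 17 of 42 comparisons, where numbers without meaning would give about 11.25. With the replicate block 1375, 1820 and 2266 genes were called, the microtubule count after parabola 10 was 1, and TUB1 changed by -0.87, -1.24 and -1.07 after parabolas 1, 3 and 10.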

Other observations

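TUB9 had the value 6.81, equal to all decimals given, on parabola 1 replicate 4 and parabola 3 replicate 4, and TUB5 had the value 4.50 on 3 arrays, replicate 3 of each parabola group. Such equal values on at least 2 arrays occurred in 11322 rows, 29.5% of the table, and in 6377 tested genes, 38.5%. Where they come from was not tested.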
